A study of Mus musculus with 9 samples.

Results

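The amino acid transporter families Slc1a, Slc3a, Slc7a, Slc36a, Slc38a and Slc43a were measured in sorted mouse islet cells. Members were taken by symbol: every protein-coding gene of the mouse GRCm38 annotation whose name begins with one of these 6 family names followed by a number. The rule found 43 genes among 22028 protein-coding genes in the tables. 42 of them belong to the families. Slc7a6os, which encodes an RNA polymerase II import factor from the strand opposite Slc7a6, matched by its letters only and is not a transporter.

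Islets came from C57B/L6 mice aged 12 weeks and were kept overnight in culture medium with serum before dispersal and cell sorting, all samples alike. The alpha-enriched subset was sorted as CD24low CD71-, the beta-enriched subset as CD24low CD71+ and the delta-enriched subset as CD24high, with 3 libraries each. The labels name no allele and no treatment that differs between samples. The labels do not say whether libraries 1 to 3 came from separate mice or pools, so p-values measure only the spread between these samples. A gate enriches a cell type and does not purify it, and in RNA from sorted pools fewer cells of a type and less RNA per cell cannot be told apart.

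Amino acids cross cell membranes only through carriers. Cationic amino acid transporters import arginine, lysine and ornithine. Other Slc7a members are light chains, which work bound to a heavy chain of the Slc3a family and exchange one amino acid for another. Slc38a and Slc1a carriers use sodium, Slc36a carriers use protons, and Slc43a carriers are facilitative. In islets, arginine, alanine and glutamine are strong stimuli of glucagon release, and mouse alpha cells multiply when circulating amino acids rise, a response for which Slc38a5 and Slc7a2 are known.

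Libraries held 5663141 to 9529920 expected counts. The members held 13485 to 40324 counts per library, 0.185% to 0.451% of all counts, and the lowest of these shares belonged to beta library 2, in which 1 ribosomal RNA locus took 34.4% of counts against 3.15% to 5.37% elsewhere. Gcg, Ins1 and Sst were each highest in the subset of their cell type, and the PP cell hormones were high in 2 subsets. Gcg, for glucagon, was at 89394 ± 9891 CPM (counts per library brought to one total, with TMM factors) in the alpha-enriched subset, and its mean in the delta-enriched and beta-enriched subsets was 4.90% and 0.440% of that. Ins1, an insulin gene, reached in the alpha-enriched subset 8.25% of its beta-enriched mean. Sst, for somatostatin, reached in alpha 0.219% of its delta-enriched mean. Over 12 alpha cell markers, summed counts were 582946 to 893652 in alpha, 17876 to 51050 in delta and 3093 to 5773 in beta libraries. Over 13 beta cell markers, which include Iapp, the beta libraries had sums of 360851 to 414876, alpha libraries 36254 to 58089 and delta libraries 40440 to 54114. The list genes were not alike in delta. Means of Ins1 and Ins2 there were 0.885% and 0.737% of those in beta, against 8.25% and 8.96% in alpha. Iapp, in rescaled TPM (explained below), was at 23065 to 26897 in delta and 4579 to 6358 in alpha libraries. PP cells make pancreatic polypeptide, the product of Ppy, and no gate was set for them. Over 4 PP cell markers, summed counts were 20985 to 31866 in alpha, 34556 to 43863 in delta and 1229 to 1880 in beta libraries. Sertm1 and Meis2 of this list had other patterns than the sum, in rescaled TPM. Sertm1 was at 8.59 to 10.8 in alpha, 0.271 to 1.07 in delta and 0 in beta libraries. Meis2 was at 128 to 172, 285 to 387 and 98.5 to 123. The part of PP cells in members that were higher in alpha and delta than in beta was not tested. Acinar markers, 15 digestive enzyme and secretory genes, summed to 19973 counts in delta library 3, against 1706 and 1306 in the other delta libraries, 2916 in alpha library 1 and at most 542 elsewhere.

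Transporter transcripts differed widely between the 3 subsets (the plots of levels and of fold changes). 29 of the 43 genes had enough counts to be tested. Between the beta- and alpha-enriched subsets, 11 were higher in beta and 7 were lower at an adjusted p under 0.05, where 14.8% and 11.9% of all 15896 tested genes were. Between beta and delta, 9 were higher and 5 lower in beta, against 15.4% and 15.3% of all tested genes. Between alpha and delta, 7 were higher and 11 lower in alpha, against 11.0% and 13.3% of all tested genes. In either direction that was 18, 14 and 18 genes, against 26.6%, 30.6% and 24.3% of all tested genes. The median absolute log2 fold change of the 29 was 0.72, 0.80 and 0.86 in these comparisons, and 0.37, 0.42 and 0.37 over all tested genes. These 3 comparisons share their libraries and are not independent. The 29 include genes that passed the filter through 1 subset only, so these counts describe the tested genes, not the families.

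Mean CPM was highest in the alpha-enriched subset for 9 of the 29, in beta for 15 and in delta for 5. Genes at least 2-fold higher in 1 subset than in both others, with both differences past the test, were Slc7a2, Slc7a8 and Slc38a5 in alpha, Slc7a11 and Slc7a15 in beta, and Slc38a1 and Slc38a11 in delta. That is 3, 2 and 2 of 29, where 1.83%, 2.76% and 3.89% of all tested genes met the same rule. The 3 libraries of 1 subset did not overlap those of the other in 22 tested members between beta and alpha, 16 between beta and delta and 20 between alpha and delta, against 45.5%, 42.6% and 36.1% of all tested genes.

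Some calls held on counts and not on TPM, when limma was run on log2 values. With both pseudocounts on deposited TPM, both calls of Slc1a1, Slc7a1, Slc7a4, Slc7a14, Slc36a1, Slc38a2, Slc38a10 and Slc43a2 were lost. So were the calls of Slc1a4, Slc7a5 and Slc38a6 for alpha against delta, of Slc7a6 for beta against alpha and of Slc7a7 for beta against delta. On rescaled TPM, which is explained below, the calls of Slc3a2, Slc7a5, Slc38a10 and Slc43a2 for beta against delta were lost, as were those of Slc7a1, Slc7a4, Slc7a6 and Slc38a2 for beta against alpha and those of Slc1a1 and Slc43a2 for alpha against delta.

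**Figure D1:**
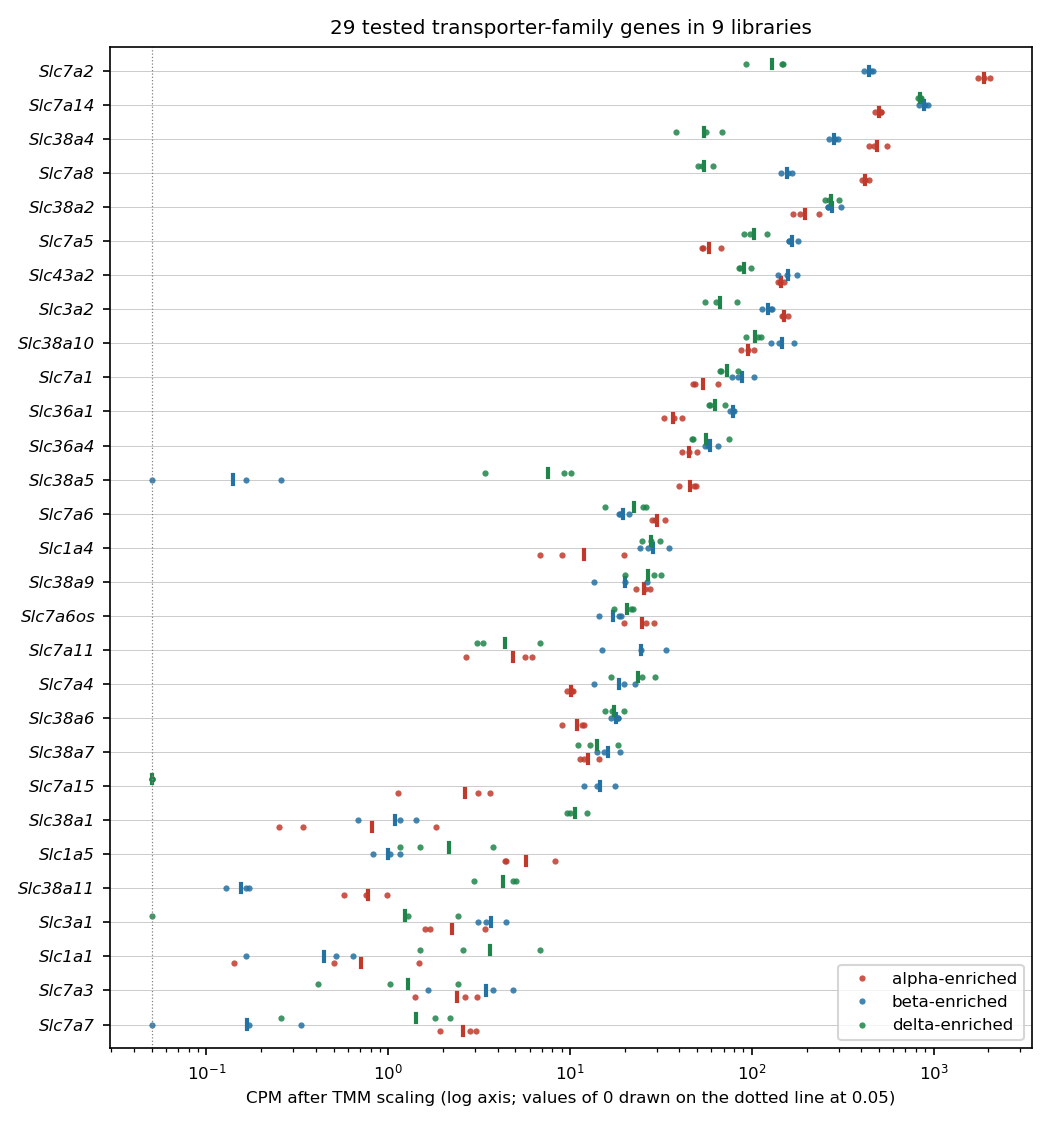
CPM after TMM scaling (log axis) of the 29 tested genes in each of the 9 libraries, as points coloured by subset, with a bar at each mean. Slc7a2 spans the widest range among abundant members, with alpha libraries at 2046, 1745 and 1902 CPM and delta libraries at 147, 93.0 and 149.

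**Figure D2:**
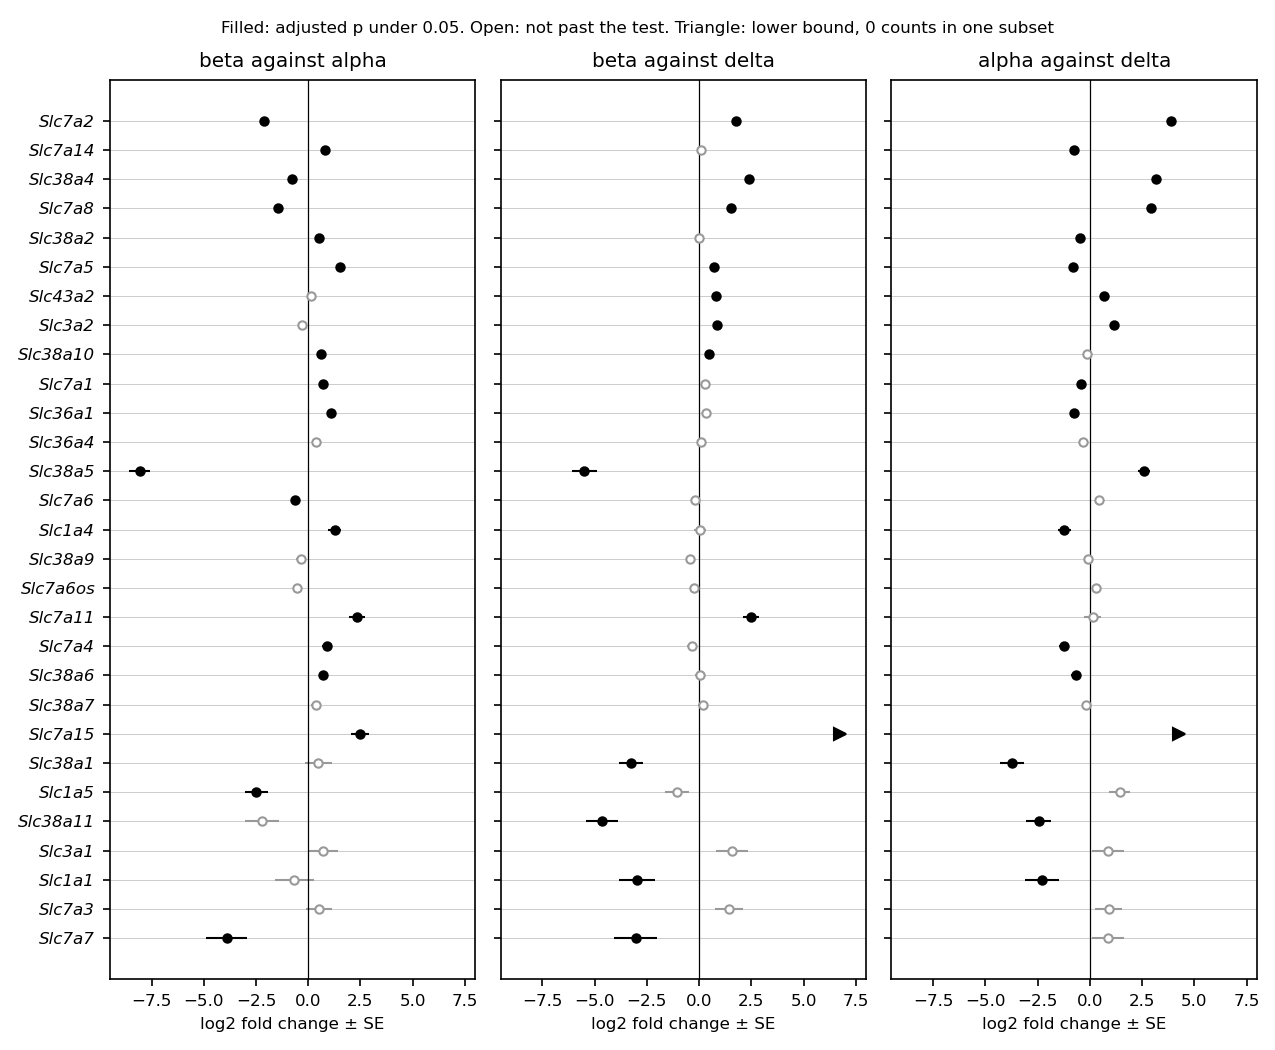
Log2 fold change with its standard error for the 29 tested genes in each comparison, with filled points past the test and open points not past it. Slc7a15 has 0 counts in delta libraries and is drawn as a lower bound, and the axis shows positive values where the first-named subset is higher.

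The make-up of transporter transcripts was unlike in the 3 subsets. To compare genes, deposited TPM, which corrects for transcript length, was rescaled so that protein-coding genes summed to 1000000. On that scale the members summed to 1836 ± 26.2 in alpha, 1270 ± 118 in beta and 1166 ± 30.6 in delta (mean ± SD, n = 3). Slc7a2 alone made up 28.1 ± 1.61% of the members' transcripts in alpha and ranked 1, against 8.82 ± 0.475% in beta and 3.78 ± 0.941% in delta. Slc7a14, a relative of the cationic transporters that is found in lysosomes, ranked 1 in beta and delta at 15.1 ± 1.28% and 21.1 ± 0.630%, and held 6.60 ± 0.415% in alpha. Slc38a4 and Slc7a8 followed Slc7a2 in alpha with 14.5 ± 0.810% and 12.4 ± 0.839%. For each of these shares the ranges of alpha and delta libraries did not overlap. Slc3a2 held a like share everywhere, 10.6 ± 0.894%, 11.5 ± 1.22% and 9.44 ± 2.88%, with overlapping libraries. Shares within a library do not depend on how libraries are scaled to each other, and they were not tested.

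**Figure D3:**
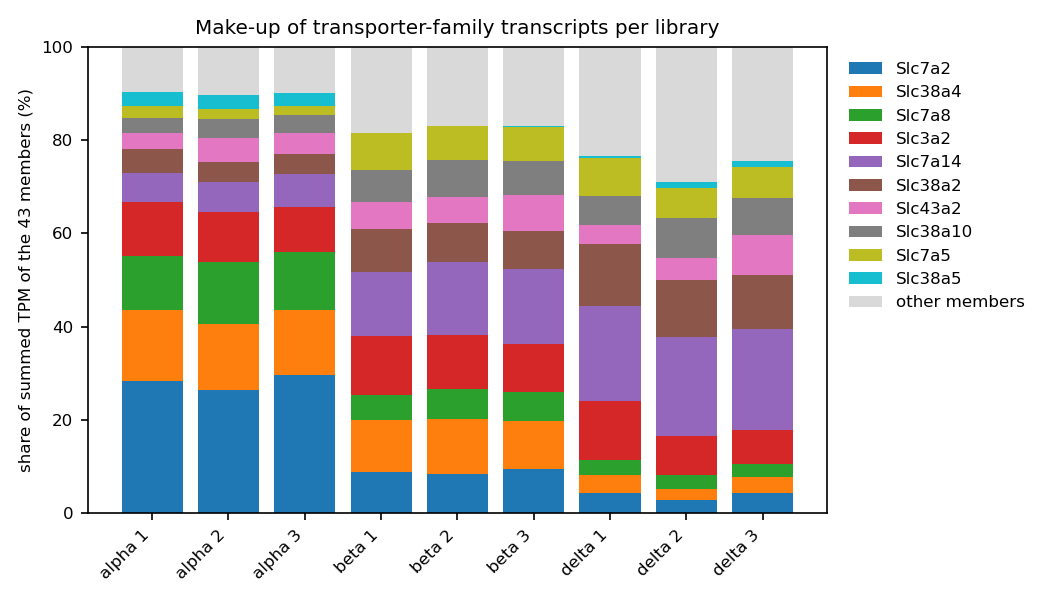
Share of the summed TPM of the 43 genes (percent) held by 10 named genes and by the other members together in each library, as stacked bars from 0 to 100. Slc7a2 takes 26.5% to 29.7% in the alpha libraries, and Slc7a14 takes 20.4% to 21.7% in the delta libraries.

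Among the cationic amino acid transporters, Slc7a2 and Slc7a1 had opposite orders. Slc7a2 encodes CAT2, an importer of arginine, lysine and ornithine (chromosome 8, 40862396 to 40922308, plus strand). It was at 2046, 1745 and 1902 CPM in alpha libraries 1 to 3, at 452, 414 and 465 in beta and at 147, 93.0 and 149 in delta. No libraries of different subsets overlapped, and the order was alpha, beta, delta. Beta over alpha gave a log2 fold change of -2.10 (SE 0.15, adjusted p = 5.5e-08), beta over delta 1.77 (SE 0.15, adjusted p = 2.9e-07) and alpha over delta 3.87 (SE 0.16, adjusted p = 2.5e-10). In the delta libraries Slc7a2 was lowest in library 2, where Gcg was lowest too, at 1930 CPM against 6003 and 5208. The mean of Slc7a2 in delta was 6.83% of that in alpha, and the part of alpha cells in the delta gate in that value was not tested. In beta the mean was 23.4% of that in alpha, where that of Gcg was 0.440%, and the part of alpha cells in the beta gate was not tested either.

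Slc7a1 encodes CAT1, the widely expressed importer of the same amino acids. Its levels were 65.1, 48.9 and 47.4 CPM in alpha, 102, 78.3 and 83.8 in beta and 66.6, 84.1 and 67.8 in delta, so that every alpha library was below every other library. It was higher in beta than in alpha, with a log2 fold change of 0.71 (SE 0.15, adjusted p = 0.0013). Alpha against delta gave -0.44 (SE 0.15, adjusted p = 0.039), a call that was lost when any of 6 of the 9 libraries was left out, with values of -0.48 to -0.32. Beta and delta did not differ past the test, at 0.28 (SE 0.15, adjusted p = 0.17). Slc7a3, for CAT3, was low everywhere, at 0.410 to 4.88 CPM, and had no call. Slc7a4, a relative with no settled transport activity, was at 9.57, 10.3 and 10.3 CPM in alpha, 13.6, 19.7 and 22.8 in beta and 16.8, 29.3 and 24.9 in delta. Alpha was below both others in all libraries, with 0.89 (SE 0.24, adjusted p = 0.011) for beta against alpha and -1.23 (SE 0.24, adjusted p = 9.2e-04) for alpha against delta. Without beta library 3 the first of these was 0.72 and not past the test (adjusted p = 0.072). Slc7a14 was at 515, 477 and 517 CPM in alpha, 828, 902 and 934 in beta and 852, 823 and 841 in delta. Beta exceeded alpha by a log2 fold change of 0.82 (SE 0.08, adjusted p = 6.0e-07) and alpha was below delta by -0.74 (SE 0.08, adjusted p = 2.4e-06). Beta and delta, which overlap, had 0.08 (SE 0.08, adjusted p = 0.49). On rescaled TPM the value was -0.36 (limma, adjusted p = 0.018), where the median of all tested genes was -0.41.

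Of the light chains, Slc7a8 had the same order as the heavy chain Slc3a2, with alpha highest and delta lowest, and Slc7a5 and Slc7a11 had other orders (the plot of heavy and light chains). Slc3a2 encodes 4F2hc, also called CD98, which carries its light chains to the cell surface (chromosome 19, 8706882 to 8723369, minus strand). It was at 158, 148 and 146 CPM in alpha, 127, 129 and 114 in beta and 82.5, 63.4 and 55.4 in delta. Each beta library was below each alpha library, but that difference did not pass the test, at -0.29 (SE 0.12, adjusted p = 0.11). It passed with upper-quartile factors, at -0.37 (adjusted p = 0.033), and without delta library 1, at -0.29 (adjusted p = 0.025). Delta was below both, with 0.88 (SE 0.13, adjusted p = 3.7e-05) for beta against delta and 1.17 (SE 0.13, adjusted p = 2.0e-06) for alpha against delta.

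Slc7a8 and Slc7a5, the light chains LAT2 and LAT1 that exchange neutral and large neutral amino acids, had different orders. Slc7a8 (chromosome 14, 54722209 to 54781946, minus strand) was at 419, 442 and 403 CPM in alpha, 144, 166 and 158 in beta and 61.0, 53.4 and 50.4 in delta. Its subsets did not overlap and fell in the order alpha, beta, delta, at log2 fold changes of -1.43 (SE 0.10, adjusted p = 5.0e-09) in beta over alpha, 1.51 (SE 0.10, adjusted p = 3.3e-09) in beta over delta and 2.94 (SE 0.10, adjusted p = 4.7e-12) in alpha over delta. Slc7a5 (chromosome 8, 121881150 to 121907694, minus strand) was at 67.7, 52.9 and 53.8 CPM in alpha, 179.9, 160.4 and 161 in beta and 121, 98.0 and 90.5 in delta. Here beta was highest and alpha lowest, again with no overlap. Beta over alpha gave a log2 fold change of 1.52 (SE 0.13, adjusted p = 7.9e-08), beta over delta 0.70 (SE 0.13, adjusted p = 3.4e-04) and alpha over delta -0.83 (SE 0.13, adjusted p = 1.1e-04).

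The other light chains were scarcer. Slc7a6, for y+LAT2, which exchanges cationic for neutral amino acids, was at 33.4, 29.2 and 28.2 CPM in alpha and 18.9, 21.1 and 18.6 in beta, with -0.63 (SE 0.20, adjusted p = 0.023) for beta against alpha. That call was lost without alpha library 1, beta library 1 or beta library 3, with values of -0.61 to -0.56. Slc7a6 in delta, at 15.6, 26.3 and 25.3 CPM, had no call against either subset. Slc7a7, for y+LAT1 with the same exchange, had 61 counts over the alpha libraries, 3 over beta and 30 over delta. Its ratio of alpha to beta was 16.8 (95% exact counting interval 5.49 to 83.8, adjusted p of the fit = 0.0063) and of delta to beta 9.06 (2.82 to 46.4, adjusted p = 0.031). The second call was lost when any of 6 libraries was left out. The fitted log2 fold changes of beta moved with single beta libraries, from -3.91 against alpha to -3.27 without beta library 1 and -4.82 without beta library 3, and from -3.04 against delta to -2.40 and -3.94. Summed PP cell markers were also low in beta and high in alpha and delta, and their part in Slc7a7 was not tested. Slc7a10, for Asc-1, had 9 counts in all libraries together and was not tested.

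Summed over Slc7a5, Slc7a6, Slc7a7, Slc7a8, Slc7a10 and Slc7a11 in rescaled TPM, light chains made 78.4 ± 2.83% Slc7a8 and 13.7 ± 2.07% Slc7a5 in alpha. In beta the same shares were 40.1 ± 3.50% and 50.5 ± 2.48%, and in delta 25.8 ± 0.607% and 59.1 ± 3.66%. Every alpha library had more Slc7a8 than Slc7a5, and every beta and delta library the reverse. The summed light chains stood at 1.49 ± 0.143 times Slc3a2 in alpha, 1.30 ± 0.133 times in beta and 1.31 ± 0.268 times in delta. By an exact 2-sided permutation test of 3 against 3 libraries, for which 0.1 is the smallest p, these ratios gave p = 0.2 for beta with alpha, 1.0 for beta with delta and 0.5 for alpha with delta (adjusted over 21 tests 0.26, 1.0 and 0.58). The other heavy chain gene, Slc3a1, encodes rBAT. It was at 1.59, 3.40 and 1.69 CPM in alpha, 3.47, 4.46 and 3.14 in beta and 0, 2.42 and 1.28 in delta, with no call. Slc7a9 and Slc7a13, whose products pair with rBAT, had 0 counts in every library.

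**Figure D4:**
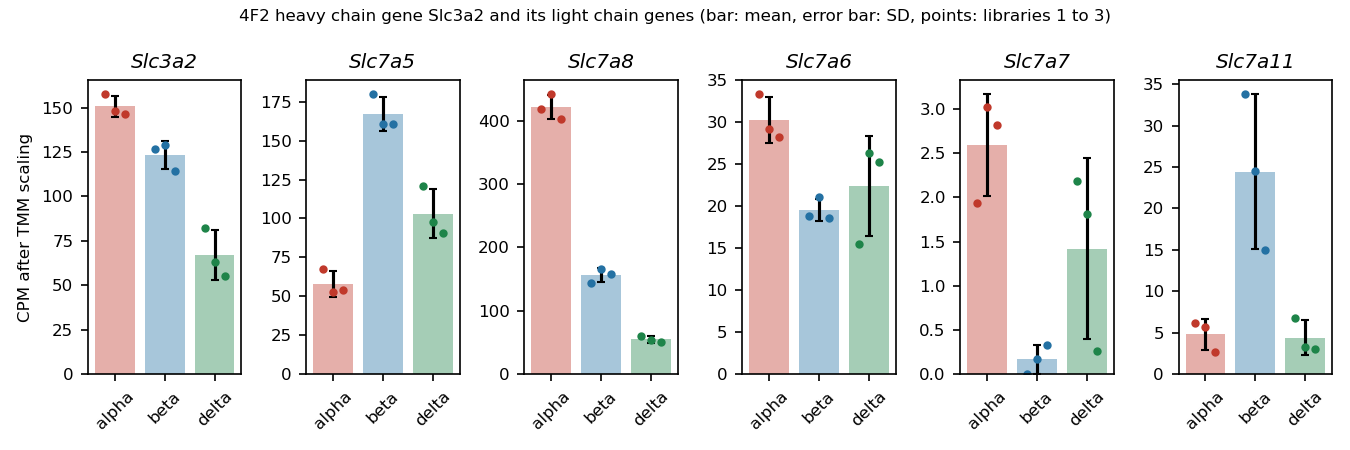
CPM after TMM scaling of Slc3a2 and of 5 light chain genes, as the mean (bar), SD (error bar) and the 3 libraries (points) of each subset, each panel with its own axis from 0. Slc7a8 falls from alpha to delta, while Slc7a5 is lowest in alpha and Slc7a11 is highest in beta.

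Slc7a11 encodes xCT, the light chain that imports cystine in exchange for glutamate and so feeds glutathione synthesis (chromosome 3, 49892526 to 50443614, minus strand). It was at 33.8, 24.5 and 15.0 CPM in the beta libraries, at 6.15, 5.67 and 2.68 in alpha and at 6.83, 3.33 and 3.08 in delta. All beta libraries lay above all others. The log2 fold change was 2.33 (SE 0.38, adjusted p = 1.9e-04) for beta against alpha and 2.47 (SE 0.38, adjusted p = 1.1e-04) for beta against delta, and alpha against delta gave 0.14 (SE 0.40, adjusted p = 0.84). Slc7a15, a relative of the light chains (chromosome 12, 8528483 to 8599066, minus strand), had 17.7, 12.0 and 14.0 CPM in the beta libraries and 3.65, 1.13 and 3.10 in the alpha libraries, with no count in any delta library. It was higher in beta than in alpha by 2.46 (SE 0.42, adjusted p = 3.7e-04). Against a floor of 3 counts over the delta libraries it was at least 108-fold higher in beta (adjusted p = 3.1e-07) and at least 19.2-fold higher in alpha (adjusted p = 5.2e-05). Its alpha mean was 18.0% of that in beta, where those of Ins1 and Ins2 were 8.25% and 8.96%. What beta cells in the alpha gate add to that value was not tested.

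Slc7a11 is a textbook target of ATF4, a transcription factor that is made when amino acids are short and that binds DNA together with C/EBP proteins. The 250 bases before each RefSeq start (GRCm38.p6) were searched on both strands for TGATGNAA, the composite element of ATF4 and C/EBP, and for TGTTTAC, a forkhead motif. Promoters were found in the table for 32 of the 43 genes. TGATGNAA matched in 2 of them, Slc7a11 and Slc7a7, and in 3.45% of 32851 promoters of the same length. TGTTTAC matched in 2, Slc7a11 and Slc36a3, and in 3.17% of promoters. The 32 genes had 43 promoters, so their counts, by gene, and these shares, by promoter, are unlike measures. Slc7a11 held TGATGNAA on the plus strand of the window from base -66 and on its other strand from base -47, counted back from the start. The windows of Slc7a11 (chr3:50443614-50443863, minus strand) and of 1 of the 2 starts of Slc7a7 with a match (chr14:54417945-54418194, minus strand, match from base -141) are shown because they hold the element and their genes had opposite orders between beta and alpha. Capitals mark the TGATGNAA matches.
Slc7a11: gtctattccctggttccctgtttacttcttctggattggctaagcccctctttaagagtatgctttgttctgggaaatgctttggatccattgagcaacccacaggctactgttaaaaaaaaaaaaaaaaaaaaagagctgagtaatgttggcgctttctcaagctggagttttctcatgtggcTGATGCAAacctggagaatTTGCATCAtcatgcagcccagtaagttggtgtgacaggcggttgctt
Slc7a7: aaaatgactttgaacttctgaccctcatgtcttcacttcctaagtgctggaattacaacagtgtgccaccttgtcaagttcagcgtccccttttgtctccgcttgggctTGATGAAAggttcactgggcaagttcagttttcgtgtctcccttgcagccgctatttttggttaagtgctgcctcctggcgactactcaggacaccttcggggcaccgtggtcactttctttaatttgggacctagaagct
A match is a description of letters in this window and no measurement of binding.

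Among carriers of glutamine and small neutral amino acids, Slc38a5 was highest in alpha and Slc38a1 in delta. Slc38a5 encodes SNAT5, a sodium-coupled carrier of glutamine, histidine, asparagine and serine (chromosome X, 8271133 to 8280179, plus strand). It was at 49.1, 47.9 and 39.6 CPM in alpha, 0.257, 0 and 0.165 in beta and 3.41, 9.22 and 10.2 in delta. Beta libraries held 3 counts together, against 1092 over alpha and 165 over delta. The ratio of alpha to beta was 301 (95% exact counting interval 102.7 to 1462, adjusted p of the fit = 7.1e-09), and that of delta to beta 49.8 (16.8 to 244, adjusted p = 2.7e-06). Without beta library 1, which held 2 of the 3 counts, the fitted log2 fold change of beta went from -8.07 to -8.81 against alpha and from -5.49 to -6.22 against delta. Without beta library 2 and delta library 3 together, the latter was -4.76. Alpha exceeded delta by 2.58 (SE 0.30, adjusted p = 8.1e-06). The delta mean was 16.7% of that in alpha, where Gcg was at 4.90%. Among the delta libraries Gcg was lowest in library 2 and Slc38a5 in library 1. The part of alpha cells in the delta gate in the Slc38a5 level was not tested. Acinar cells carry Slc38a5 too, and delta library 3, with the highest acinar sum, was the highest of the delta libraries in Slc38a5. Without delta library 3 the calls of Slc38a5 were kept, but the other delta libraries also held acinar counts, 1706 and 1306. The part of acinar cells in the delta level was not tested. PP cell marker sums, low in beta and high in alpha and delta, had the same low subset, and their part was not tested either.

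Slc38a4, Slc38a2 and Slc38a1 lie side by side on chromosome 15 and encode SNAT4, SNAT2 and SNAT1, the sodium-coupled importers of system A, which prefer alanine, serine and glutamine. Their orders were unlike. Slc38a4 (96994820 to 97055956) was at 556, 470.4 and 443 CPM in alpha, 298, 286 and 265 in beta and 68.6, 38.3 and 56.2 in delta, with no overlap. The log2 fold change came to -0.79 (SE 0.16, adjusted p = 0.002) in beta over alpha, 2.38 (SE 0.17, adjusted p = 1.3e-07) in beta over delta and 3.17 (SE 0.17, adjusted p = 1.4e-08) in alpha over delta. Slc38a1 (96571418 to 96642913) was at 12.4, 9.98 and 9.64 CPM in delta, 0.342, 0.252 and 1.83 in alpha and 1.41, 0.685 and 1.16 in beta. Delta lay above all other libraries, with -3.26 (SE 0.56, adjusted p = 2.0e-04) for beta against delta and -3.75 (SE 0.57, adjusted p = 8.6e-05) for alpha against delta, which became -5.08 without alpha library 3. Slc38a2 (96687392 to 96699730) was abundant in all subsets, at 196 ± 34.8, 277 ± 26.1 and 274 ± 26.8 CPM. It was higher in beta than in alpha by 0.50 (SE 0.12, adjusted p = 0.0041) and lower in alpha than in delta by -0.48 (SE 0.12, adjusted p = 0.0061). Without alpha library 3 the latter was -0.38 and not past the test (adjusted p = 0.0502).

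Slc1a4 and Slc1a5, for the exchangers ASCT1 (alanine, serine, cysteine) and ASCT2 (alanine, serine, glutamine), had opposite orders between alpha and beta. Slc1a4 was at 19.8, 6.80 and 9.03 CPM in alpha, 35.1, 24.2 and 26.7 in beta and 31.4, 27.8 and 24.8 in delta. All alpha libraries lay below the others, with 1.26 (SE 0.31, adjusted p = 0.0072) for beta against alpha and -1.22 (SE 0.31, adjusted p = 0.0098) for alpha against delta. Without alpha library 1, the highest of the 3, these values became 1.86 and -1.81. That library also had the highest acinar sum of the alpha libraries. Delta library 3, with the highest acinar sum of all libraries, was the lowest of the delta libraries in Slc1a4. The part of acinar cells in these levels was not tested. Without delta library 1 alpha against delta was -1.13 and not past the test (adjusted p = 0.062). Slc1a5 was at 4.44, 8.31 and 4.37 CPM in alpha, 1.16, 1.03 and 0.825 in beta and 1.50, 3.78 and 1.16 in delta. Beta was below alpha by -2.48 (SE 0.56, adjusted p = 0.0029), and neither difference from delta passed the test, at -1.06 (SE 0.58, adjusted p = 0.19) for beta and 1.42 (SE 0.52, adjusted p = 0.057) for alpha.

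Of the remaining Slc38a genes, Slc38a11 was another with most of its counts in delta, 92 over the delta libraries against 18 over alpha and 3 over beta. Delta exceeded beta 27.8-fold (95% exact counting interval 9.22 to 137, adjusted p of the fit = 1.1e-04), and alpha against delta had -2.46 (SE 0.60, adjusted p = 0.0056). Slc38a10 was higher in beta, at 147 ± 22.3 CPM, than in alpha and delta, at 95.3 ± 7.65 and 104 ± 9.85, by 0.62 (SE 0.12, adjusted p = 7.6e-04) and 0.49 (SE 0.12, adjusted p = 0.0044). Slc38a6 was lowest in alpha, at 10.9 ± 1.60 CPM against 17.8 ± 0.875 in beta and 17.5 ± 2.23 in delta. Both of its calls, 0.71 for beta against alpha and -0.68 for alpha against delta, were lost when single libraries were left out, 3 of them for the first (alpha 3, beta 1 or beta 2, 0.60 to 0.69) and 2 for the second (alpha 3 or delta 1, -0.58 to -0.56). Slc38a7, which exports glutamine from lysosomes, and Slc38a9, the lysosomal arginine sensor of mTORC1, had no call, with means of 12.5 to 16.1 and 20.1 to 26.9 CPM.

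The proton-coupled and facilitative carriers differed less. Slc36a1 encodes PAT1, which exports small neutral amino acids from lysosomes. It was at 32.9, 41.1 and 37.1 CPM in alpha, 79.2, 79.7 and 76.2 in beta and 59.0, 71.2 and 57.8 in delta, so that alpha was lowest and beta highest with no overlap. Beta exceeded alpha by 1.08 (SE 0.13, adjusted p = 3.9e-06) and alpha was below delta by -0.76 (SE 0.13, adjusted p = 2.2e-04), while beta against delta, at 0.32 (SE 0.12, adjusted p = 0.058), did not pass. Slc36a4, for PAT4, had no call, with means of 45.4 to 59.1 CPM. Slc43a2 encodes LAT4, a facilitative carrier of branched-chain amino acids, phenylalanine and methionine. It was lower in delta, at 90.4 ± 7.96 CPM, than in alpha and beta, at 144 ± 5.36 and 157 ± 18.8. The log2 fold change was 0.80 (SE 0.11, adjusted p = 1.7e-05) for beta against delta and 0.67 (SE 0.11, adjusted p = 1.4e-04) for alpha against delta. Neither call passed on any of the 3 TPM scales. On rescaled TPM the delta libraries of Slc43a2, at 48.2, 54.8 and 97.6, overlapped those of alpha, at 64.0, 93.5 and 82.1, and of beta, at 80.9, 65.2 and 95.6, with 0.32 (adjusted p = 0.36) for beta against delta and 0.30 (adjusted p = 0.43) for alpha against delta.

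Glutamate importers were nearly silent. Slc1a1, for EAAT3, was the only one of 5 that could be tested, at 1.50, 6.80 and 2.57 CPM in delta and 0.141 to 1.48 CPM in the other libraries. Its calls, -2.96 (SE 0.87, adjusted p = 0.015) for beta against delta and -2.28 (SE 0.80, adjusted p = 0.048) for alpha against delta, rested on delta library 2. Without that library they were -2.14 and -1.46 and did not pass (adjusted p = 0.11 and 0.27). Without alpha library 1 the second was -3.37. Leaving out beta library 2 or 3 also ended the first call, and leaving out any of 6 other libraries, all but alpha 1 and delta 1, the second. Slc1a2, the main glutamate importer of astrocytes, had 12 counts in all and Slc1a7 6, and Slc1a3 and Slc1a6 had none. The other genes not tested were Slc38a8 with 36 counts, Slc43a1 with 11, Slc38a3 with 3, Slc43a3 with 2, Slc36a2 with 1, and Slc36a3 and Slc7a12 with 0. Altogether 14 genes were not tested, 6 of them with 0 counts in all 9 libraries. A count of 0 in 1 library allows up to 0.342 to 0.514 CPM there, the value of 3 counts, and covers counting error only.

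Summed by substrate in rescaled TPM, cationic carriers were at 562 ± 34.9 in alpha, 156 ± 19.0 in beta and 99.5 ± 6.25 in delta. This class holds Slc7a1, Slc7a2, Slc7a3, Slc7a6, Slc7a7 and Slc7a9, which did not share 1 order. Slc7a2 held 28.1%, 8.82% and 3.78% of the members' transcripts in alpha, beta and delta, and Slc7a1 1.22%, 2.33% and 3.01%. Large neutral carriers were at 348 ± 23.0, 251 ± 20.8 and 185 ± 20.5, and carriers of small neutral amino acids and glutamine at 432 ± 34.5, 282 ± 42.1 and 252 ± 18.5. Proton-coupled carriers had the reverse order on this scale, although per kilobase with TMM scaling their beta to delta ratio was 1.10 in place of 0.808, at 31.3 ± 3.60, 48.4 ± 4.62 and 60.0 ± 10.1. This scale moves the median of all tested genes on the log2 scale by -0.13 in beta over alpha, -0.41 in beta over delta and -0.29 in alpha over delta. Per kilobase with TMM scaling no other of these class sums changed its order. By the exact permutation test, all 3 pairs of subsets gave the smallest p that 3 against 3 can give, 0.1 (adjusted over 21 tests 0.175), for cationic and large neutral carriers. For small neutral and proton-coupled carriers beta against delta gave 0.4 and 0.2. No class sum can pass 0.05 in this design.

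Other genes that carry, sense or use amino acids were read from the same fit, by lists of textbook members (the plot of list genes). Of 25 genes of the amino acid response, in which the kinase GCN2 senses uncharged tRNA and ATF4 turns on synthesis and transport genes, 24 were tested. Between beta and alpha 19 were higher in beta and 1 lower, Eif2ak4, which encodes GCN2 itself, at -0.58. The median log2 fold change was 1.10, against -0.02 over all tested genes. Atf5, a transcription factor of the response, stood in beta at 113 ± 11.0 CPM and in alpha at 18.1 ± 3.43, a log2 fold change of 2.63 (SE 0.19, adjusted p = 1.8e-08). Wars, which charges tRNA with tryptophan, was at 109 ± 12.0 and 37.8 ± 1.15 CPM, and Vldlr, a lipoprotein receptor gene, at 212 ± 16.3 and 40.4 ± 8.56, with 1.52 and 2.39. Against delta, beta had 9 higher and 0 lower, and alpha 0 higher and 9 lower. Leaving out libraries or changing the method gave 14 to 20, 2 to 14 and 5 to 14 for these 3 main counts. Over all tested genes, 14.8% and 11.9% were higher and lower in beta than in alpha. Against delta such shares were 15.4% and 15.3% in beta and 11.0% and 13.3% in alpha. Of the transporters known as targets of this response, those higher in beta than in alpha were Slc7a11 at 2.33, Slc7a5 at 1.52, Slc1a4 at 1.26, Slc7a1 at 0.71 and Slc38a2 at 0.50. Slc3a2, another known target, was at -0.29 and did not pass the test, and Slc1a5, also a known target, was lower in beta, at -2.48. These members were picked as known targets after their values were seen.

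Enzymes of glutamine and arginine showed single large differences rather than a common direction. Of 13 tested enzymes of glutamate and glutamine, 5 were higher and 2 lower in beta than in alpha. Among the lower was Glud1, glutamate dehydrogenase, at 127 ± 1.51 CPM in beta and 274 ± 5.43 in alpha (-1.11 (SE 0.08, adjusted p = 2.0e-08)). The 5 higher were Gad1, Abat, Gpt2, Glul and Aldh5a1. Glul, glutamine synthetase, had 348 ± 19.3 CPM in beta against 103 ± 18.1 in delta (1.76 (SE 0.12, adjusted p = 3.0e-09)). Against delta the list counted 5 higher and 4 lower in beta, and 5 higher and 3 lower in alpha. Shares of all tested genes were 14.8% higher and 11.9% lower for beta against alpha. They were 15.4% and 15.3% for beta against delta, and 11.0% and 13.3% for alpha against delta.

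Of 14 tested enzymes of arginine, ornithine and polyamines, 5 were higher and 3 lower in beta than in alpha. They numbered 7 higher and 4 lower in beta than in delta, and 2 higher and 4 lower in alpha than in delta. In these comparisons 14.8% and 11.9%, 15.4% and 15.3%, and 11.0% and 13.3% of all tested genes were higher and lower. Arg1, arginase, which splits arginine to ornithine and urea, was at 214 ± 13.7 CPM in delta, 15.1 ± 4.69 in alpha and 1.80 ± 0.680 in beta, with -6.93 (SE 0.26, adjusted p = 4.2e-11) for beta against delta and -3.82 (SE 0.20, adjusted p = 2.2e-09) for alpha against delta. Oat, ornithine aminotransferase, was highest in alpha, at 32.3 ± 2.01 CPM against 6.03 ± 1.69 in delta and 1.04 ± 0.455 in beta. Slc7a2, which imports arginine, had the order alpha, beta, delta, so that its highest subset was not that of Arg1.

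In the mTORC1 list, the machinery by which lysosomal amino acids are sensed, 34 genes were tested. Beta against alpha had 5 higher and 4 lower, beta against delta 8 and 2, alpha against delta 9 and 1. In either direction these are 9, 10 and 10 of 34 genes, near the 26.6%, 30.6% and 24.3% of all tested genes. By direction, 14.8% and 11.9%, 15.4% and 15.3%, and 11.0% and 13.3% of all tested genes were higher and lower. In the main fit the calls against delta were more often higher than lower in beta and in alpha, and a lean of the list was not tested. Leaving out libraries or changing the method gave 2 to 10 higher and 0 to 7 lower in beta against delta. For alpha against delta it gave 2 to 10 and 0 to 2. Rragb, for a Rag GTPase, was at 197 ± 19.8 CPM in alpha, 63.9 ± 14.3 in delta and 39.6 ± 3.35 in beta (-2.31 (SE 0.15, adjusted p = 2.2e-09) for beta against alpha). Of 13 branched-chain enzymes, 5 were higher in beta than in alpha and 0 lower, against 14.8% and 11.9% of all tested genes. Bckdhb at 1.26 and Ivd at 0.80 led the 5. Among 13 mitochondrial carriers Slc25a44, a carrier of branched-chain amino acids, was the 1 higher in beta than in alpha, and Sfxn5 was higher in delta than in alpha and beta, at 12.6 ± 4.77 CPM against 1.23 ± 0.703 and 2.95 ± 0.140. Among 5 tested lysosomal and vesicular carriers Ctns, which exports cystine, and Slc29a3 were higher in beta than in alpha, at 0.67 and 0.85.

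Transporters of other families gave 2 further marked orders. 8 of 19 listed were tested. Slc16a10, a carrier of aromatic amino acids, was at 442 ± 12.0 CPM in alpha, 231 ± 21.4 in beta and 238 ± 14.5 in delta, with -0.94 (SE 0.09, adjusted p = 4.2e-07) for beta against alpha. Slc6a19, a sodium-coupled importer of neutral amino acids, was at 20.1 ± 1.24 CPM in beta, 0.902 ± 0.294 in alpha and 2.62 ± 1.88 in delta, with 4.47 (SE 0.51, adjusted p = 4.5e-06) for beta against alpha. Over this list beta had 2 higher and 3 lower than alpha, with Slc6a6 the other higher gene and Slc15a2 and Slc6a17 the other lower ones. The shares over all tested genes were 14.8% and 11.9%.

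**Figure D5:**
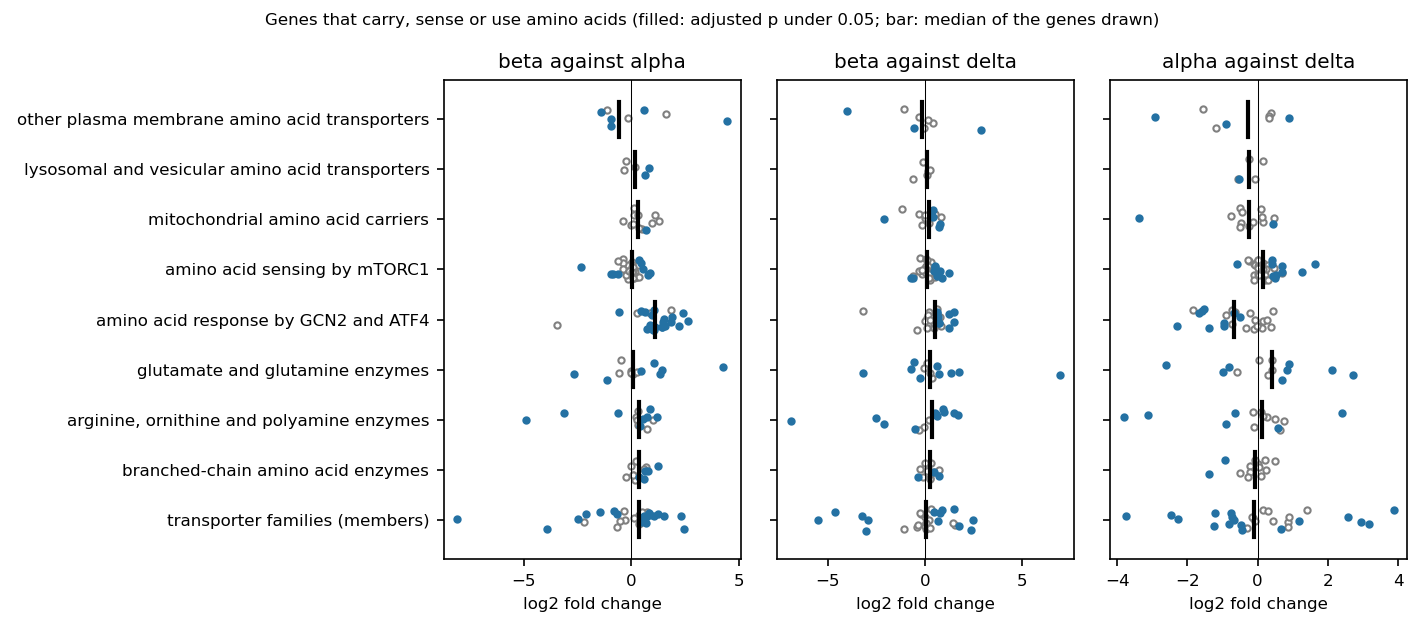
Log2 fold change of the tested genes of each list and of the tested members in the 3 comparisons, as points filled where past the test, with a bar at the median of the genes drawn. Slc7a15 is left out of panels against delta, where it has 0 counts, and the list of the GCN2 and ATF4 response lies mostly above 0 for beta against alpha.

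Several members share bases with genes on the other strand: Slc7a2 with Gm26584, Slc7a5 with Gm20388, Slc7a15 with 5033421B08Rik, Slc7a4 with P2rx6, Slc7a7 with Oxa1l, Slc3a1 with Prepl and Slc7a14 with Gm15496. So do Slc1a1 with Gm5822 and 4430402I18Rik, Slc38a9 with Gm47827, Slc38a10 with Gm11769 and Slc43a2 with Gm45606. The sources used here do not say whether the counting used strand, so the values of these members, and of Slc7a11, which 5 gene models overlap, are uncertain to that extent. Members are close relatives of each other, and reads that match more than 1 gene were shared by estimation.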

How the data were processed

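RNA was measured in 9 libraries from sorted mouse islet cells, 3 each of the alpha-, beta- and delta-enriched subsets, grouped by their labels. Libraries were strand-specific (Ovation Solo kit, random primers, depletion of ribosomal RNA) and read in paired ends, per the labels' protocols. The submitters' processing notes name the genome build GRCm38.p6, the aligner STAR 2.5.2b and the counter RSEM; no source used here gives the RSEM version or its strand setting. Per the file headers, the authors deposited for each library 1 RSEM table of 55536 genes with the expected count, the TPM value and the effective length of each. Reads that fit several genes are split between them by RSEM, so 6.94% to 8.66% of genes held a fractional expected count. The normalised table of the whole series was not used here.

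The members and the gene lists were chosen with earlier results of these data known, so no count over a list is independent evidence. Symbols, biotypes and coordinates came from GENCODE M21, which is on GRCm38, by gene identifier, and 250 bases before each start from RefSeq.

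Expected counts were rounded to whole numbers. The edgeR function filterByExpr, given the subsets, kept 15896 genes. Over all 9 libraries, edgeR 4.0.16 (R 4.3.3) fitted 1 coefficient per subset with TMM scaling and a robust quasi-likelihood, and each pair of subsets was compared by a 2-sided test, adjusted by Benjamini-Hochberg over all tested genes, at 0.05. Every adjusted p for a gene is from this fit unless another test is named. Enrichment in 1 subset took the larger raw p of its 2 comparisons, adjusted over all tested genes, and a log2 fold change of 1 or more in both. Sums and ratios over members used deposited TPM rescaled so that protein-coding genes summed to 1000000, with an exact permutation test, and scipy 1.17.1. Members are given library by library where past the test with a log2 fold change of 1 or more either way and 5 CPM or more in the higher subset, or as heavy chains. Up to 3 genes per list and comparison were named by smallest p at 5 CPM or more, and other names were added after values were seen. One gene that this rule names is counted in its list but not reported here. Intervals and floors cover counting error only, since reads were not collapsed by molecular identifiers here.

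As alternatives there were DESeq2 size factors, upper-quartile factors, the DESeq2 1.42.0 Wald test, no filter, a filter of 10 CPM in 3 libraries, limma 3.58.1 on log2 TPM with pseudocounts of 1 and 0.1 and on rescaled TPM with 1, a replicate block, leaving out each library, and leaving out beta 2 and delta 3, or alpha 1 and delta 3, together. The fit was tested on simulated counts.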

Additional observations from a re-analysis of the deposited data

How the results depend on the processing

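Of 50 differences called among the 29 tested members, 26 kept their direction and their call in each of the 20 alternatives that gave a value, and 39 in each of the 17 on counts. Of 37 not called, 11 were called in at least 1 alternative. The cause of the changes below was not tested, except that a stricter filter and a left-out library leave fewer genes or samples. TPM shifts the median of all tested genes against delta by 0.10 to 0.22 at the deposited scale.

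Members lower in beta than in delta numbered 5, and 2 with the stricter filter, 3 with log2(TPM + 1), 3 with log2(TPM + 0.1) and 3 to 5 when 1 library was left out, 3 without beta library 2 or delta library 2. Members higher in beta than in alpha numbered 11, and 5 with either TPM pseudocount. Members lower in alpha than in delta numbered 11, 2 with either TPM pseudocount, and 7 to 11 when 1 library was left out, 7 without alpha library 3. Members higher in beta than in delta numbered 9, and 5 on rescaled TPM. Genes enriched in beta numbered 2, and 1 with the stricter filter and 1 on rescaled TPM. Genes enriched in delta numbered 2, and 1 with the stricter filter, 0 with log2(TPM + 1), 1 with log2(TPM + 0.1), and 1 to 3 when 1 library was left out, 1 without alpha library 1. The log2 fold change of Slc7a14 for beta against delta was 0.08, and -0.36 on rescaled TPM. The median of all tested genes in this comparison was -0.02, and -0.41 on rescaled TPM.

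With TMM-scaled CPM per kilobase in place of rescaled TPM, beta to delta ratios were 2.12 for cationic carriers (1.56 as reported), 1.85 for large neutral (1.36), 1.52 for small neutral and glutamine (1.12) and 1.10 for proton-coupled carriers (0.808, so reversed). Alpha to delta ratios were 6.99 (5.65), 2.32 (1.88), 2.13 (1.72) and 0.644 (0.521). When 1 library was left out, the acidic class ratio was 0.113 to 0.438 for beta to delta and 0.102 to 0.330 for alpha to delta, both highest without delta library 2 (0.184 and 0.139 as reported). The cystine class ratio was 2.40 to 7.41 and 0.551 to 1.60, both highest without delta library 1 (3.34 and 0.722 as reported).

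With the replicate block, 12 members were higher and 8 lower in beta than in alpha, 10 and 4 in beta against delta, and 8 and 11 in alpha against delta, with 3, 2 and 2 enriched. The deviations of same-numbered libraries from their subset means correlated at 0.00085 to 0.112, which is not above 0.1 for every pair, and no label says that a number marks a shared preparation, so the numbers were not used as pairs. Each library had its highest correlation with a library of its own number, a hint from the data and not from the design. With the block Slc3a2 passed for beta against alpha, at -0.29 (adjusted p = 0.041), and Slc7a7 did not for beta against delta, at -2.96 (adjusted p = 0.051). Low counts limit Slc1a1, Slc3a1, Slc7a3, Slc7a7 and Slc38a11.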
